A study of Tupaia belangeri with 2 samples.

Results

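NEUROD1, NEUROD2, NEUROD6, TBR1 and FEZF2, transcription factor genes best known from glutamatergic projection neurons of the cerebral cortex, were taken by gene name, 5 genes among the 18543 names that the annotation gives to 23975 gene models. Their messages were counted in single cells from the whole brains of 2 tree shrew (Tupaia belangeri) embryos of 4 to 5 postconceptional weeks, with dura mater and blood vessels removed, 1 droplet library per embryo, and no other treatment, genotype or time point. Of 18926 barcodes, 17727 cells with at least 200 detected genes were kept, 8401 from embryo 1 with 38126850 UMIs (molecular tags by which each captured transcript is counted once) and 9326 from embryo 2 with 35785027. The median depth was 3537 and 3169.5 UMIs per cell, haemoglobin took 22.4% and 8.38% of the UMIs of embryos 1 and 2, and 18 barcode sequences occurred in both libraries. All levels below are UMIs of a gene per 1000000 UMIs (CPM) summed over the cells of a group in each embryo, so that an error is the SD between the 2 embryos.

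NEUROD1, NEUROD2 and NEUROD6 encode neurogenic basic helix-loop-helix proteins, which pair with E proteins and switch on neuronal genes as progenitors leave the cell cycle. In the developing cortex, radial glia give rise to intermediate progenitors that carry EOMES, and these give rise to neurons that carry TBR1, a T-box factor of early-born and deep layer neurons. NEUROD2 and NEUROD6 are known from postmitotic pyramidal neurons, and NEUROD1 from the step before and around the last division as well as from granule neurons, endocrine cells and the retina. FEZF2 encodes a zinc finger repressor that is known both from forebrain progenitors and from the neurons that send axons to the spinal cord.

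The cells formed 17 clusters, of which 14 earned a name from marker genes, and neither the 5 genes nor the other genes of their pathway were used to form them. The cortical excitatory neuron-like class, hereafter the cortical class, was a single cluster of 1085 cells (553 and 532), which were 6.58% and 5.70% of the cells of embryos 1 and 2. It was named from 3 markers, among them ZBTB18 (589 CPM ± 83.1) and NFIX (139 CPM ± 33.2), out of 9 cortical markers that the annotation names, and VGLU1, the vesicular glutamate transporter SLC17A7 of cortical neurons, stood at 27.0 CPM. ZBTB18 and SLC17A7 were found under older names only after the clusters had been seen, and without ZBTB18 the cluster would have kept 2 markers and no name. The other neuron-like classes were midbrain or thalamus excitatory neurons (1690 cells), forebrain GABA neurons (3660) and midbrain GABA neurons (3043). The remaining named classes were radial glia (1998), dividing cells (2575), erythroid cells (1003), microglia (158), endothelial cells (87), fibroblasts (115) and choroid plexus epithelium (162), and clusters 6, 11 and 12 stayed unnamed.

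All 5 genes had their highest level in the cortical class in both embryos, but they differed in what came next. NEUROD6, NEUROD2 and TBR1 were at a small fraction of their cortical level in every other group, NEUROD1 was shared with other neurons, and FEZF2 was shared with radial glia and dividing cells. The cortical class held 82.6% of all NEUROD6 UMIs (mean of both embryos), 76.7% of those of NEUROD2 and 75.8% of those of TBR1, but 47.3% of those of NEUROD1 and 36.4% of those of FEZF2. Since the genes were picked as cortical factors, these levels are given as a description and no test was made of them.

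NEUROD6 (evm.model.chr6.15) had 8095 UMIs in 1380 cells. Its level in the cortical class was 1426 CPM in embryo 1 and 1349.8 in embryo 2 (1388 ± 54.1), 22.8-fold above the next class. Forebrain GABA neuron-like cells had 77.3 and 44.6 CPM and midbrain or thalamus excitatory neuron-like cells 60.9 and 25.3, so that the classes overlapped between the embryos, although the forebrain GABA class was the higher of both within each embryo. The forebrain GABA class was made of clusters 1 and 5. Cluster 1, which also had granule neuron markers, held 543 of its 582 NEUROD6 UMIs, and cluster 5 held 39. Dividing cells had 17.0 and 15.9 CPM, midbrain GABA neuron-like cells 16.4 and 9.74, erythroid-like cells 11.8 and 10.1, and radial glia-like cells 4.68 and 5.33, with no UMI in endothelial-like or fibroblast-like cells. Radial glia-like cells thus had a lower NEUROD6 level than erythroid-like cells, which are not expected to use the gene. The erythroid level is no even background. In that class 10 cells with at least 5 UMIs held 68.3% of the NEUROD6 UMIs, and haemoglobin took 88.3% and 88.0% of all UMIs.

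NEUROD2 (evm.model.chr16.1036), the least counted of the 5 genes, had 210 UMIs in 189 cells and never more than 2 in one cell. The cortical class had 32.0 and 34.9 CPM (33.5 ± 2.04), 12.6-fold above the midbrain or thalamus excitatory neuron-like class with 3.61 and 1.72. Forebrain GABA neuron-like cells followed with 3.46 and 0.902 CPM, which overlaps the class before. No NEUROD2 UMI was counted in 7 groups, among them radial glia, where a count of 0 allows up to 0.638 CPM in embryo 1 and 0.695 in embryo 2 (3 UMIs of the total, counting error only).

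TBR1 (evm.model.chr1.994) had 642 UMIs in 465 cells, and its level in the cortical class was almost the same in both embryos, 102.2 and 100.6 CPM (101.4 ± 1.14). Next came the forebrain GABA neuron-like cells with 8.31 and 9.56 CPM, an 11.4-fold lower level, and then the midbrain or thalamus excitatory neuron-like cells with 4.51 and 0.491. Within the forebrain GABA neuron-like class, TBR1 stood at 0.375 CPM in cluster 5 and at 13.2 in cluster 1, whose markers included ISL1 and SIX3 of forebrain GABA neurons together with ZIC1, ZIC2 and CBLN1 of granule neurons.

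NEUROD1 (evm.model.chr1.1155), with 934 UMIs in 614 cells, was less restricted. Its 87.6 and 97.5 CPM in the cortical class (92.5 ± 6.98) were 3.73-fold above the midbrain or thalamus excitatory neuron-like class, which had 27.5 and 22.1. Forebrain GABA neuron-like cells (26.5 and 13.7) overlapped with that class, but 180 of their 191 NEUROD1 UMIs lay in cluster 1 and 11 in cluster 5. Unnamed cluster 11 had 4 markers each of midbrain or thalamus neurons and of granule neurons. It had 17.8 and 13.8 CPM, below the midbrain or thalamus excitatory neuron-like class and overlapping the forebrain GABA neuron-like cells. Midbrain GABA neuron-like cells had 1.68 and 3.32 CPM and radial glia-like cells 1.70 and 1.16. Erythroid-like cells were lower in CPM, with 1.10 and 0.316 CPM on 10 and 1 UMIs. Haemoglobin took 88.3% and 88.0% of all UMIs in that class, which lowers the CPM of its other genes. Whether NEUROD1 in radial glia-like cells lies above background can thus not be read from this comparison.

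FEZF2 (evm.model.chr24.518) had 4227 UMIs in 1807 cells, more cells than any other of the 5 genes. The cortical class had 344 and 290.1 CPM (317 ± 38.2), radial glia-like cells 153 and 131 (142 ± 15.3) and dividing cell-like cells 81.1 and 50.5 (65.8 ± 21.6), and these 3 classes did not overlap between the embryos. Forebrain GABA neuron-like cells had 22.2 and 21.3 CPM, with 187 of their 214 UMIs in cluster 1, and all other groups had a mean of at most 17.4. Among the progenitor clusters the level was uneven, at 170.1 CPM in radial glia-like cluster 4, 97.2 in dividing cluster 2 and 58.9 in radial glia-like cluster 10.

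**Figure D1:**
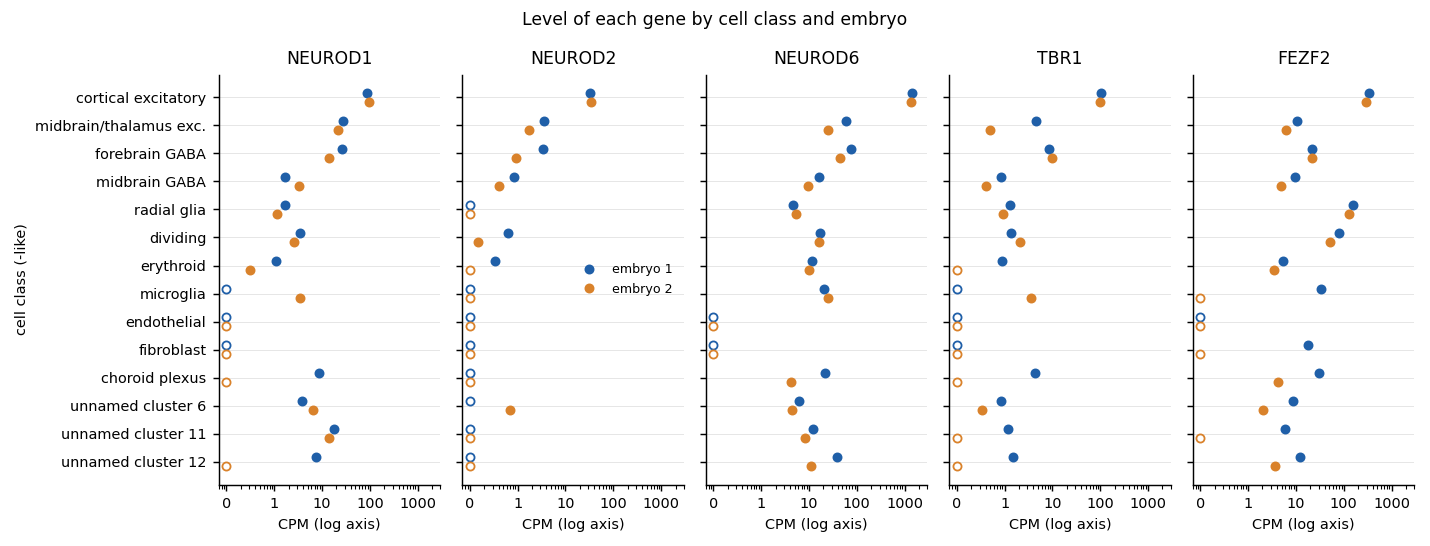
Level of each gene (CPM, log axis) in the 11 named classes and 3 unnamed clusters, 1 point per embryo, with open points at the left edge for a level of 0. All 5 genes peak in the cortical class, and only FEZF2 has its next points in radial glia (153 and 131 CPM) and dividing cells (81.1 and 50.5).

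Counted cell by cell, 74.9% and 76.9% of the cortical cells of embryos 1 and 2 had a NEUROD6 UMI, 53.9% and 46.1% a FEZF2 UMI, 33.3% and 31.4% a TBR1 UMI, 26.2% and 25.9% a NEUROD1 UMI, and 13.6% and 12.6% a NEUROD2 UMI. These shares depend on depth, since the cortical cells had a median of 4098 UMIs and the GABA neuron-like classes 2369.5 and 2206. Thinned to 2000 UMIs per cell, which left out 29 and 31 shallower cortical cells, NEUROD6 was still found in 72.3% and 73.3% of the cortical cells, FEZF2 in 38.2% and 32.3%, NEUROD1 in 15.6% and 16.0%, TBR1 in 15.3% and 15.4% and NEUROD2 in 5.53% and 6.99%. Thinning draws UMIs at random, and a second draw gave 19.7% and 16.4% for TBR1, 14.7% and 16.0% for NEUROD1 and 4.39% and 5.99% for NEUROD2. No order of TBR1 and NEUROD1 can be read from these shares. Erythroid-like cells, which should lack these genes and had a median of 12925 UMIs of which haemoglobin took 88.3% and 88.0%, had a NEUROD6 UMI in 0.937% and 1.33% after the same thinning and a FEZF2 UMI in 1.20% and 0.885%. The thinned NEUROD6 shares of radial glia-like cells (1.09% and 0.939%) and dividing cells (1.18%, mean of both embryos) were close to the erythroid ones. FEZF2 was found in 22.3% and 17.96% of radial glia-like cells and in 10.0% and 7.51% of dividing cells. The erythroid shares are no even background, since most erythroid UMIs left after thinning are haemoglobin. Before thinning, 10 erythroid-like and 16 dividing cells with at least 5 NEUROD6 UMIs held 68.3% and 70.0% of the NEUROD6 UMIs of their classes.

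NEUROD6 detection was a matter of many UMIs in most cortical cells. Of the cortical cells with a NEUROD6 UMI, the median had 7 and the highest 32, and the 582 cells with at least 5 UMIs held 91.1% of the cortical NEUROD6 UMIs. FEZF2 reached at least 5 UMIs in 81 cortical cells, with a maximum of 19, and in 40 radial glia-like and 34 dividing cells, where the maximum was 31 and 38. For NEUROD1, 6 cortical cells reached 5 UMIs, and TBR1 and NEUROD2 had at most 4 and 2. In the whole brain, 673 cells had at least 5 NEUROD6 UMIs, and 86.5% of them lay in the cortical class. Of the other such cells, 37 lay in forebrain GABA neuron-like cluster 1, where 18 had a NEUROD1 UMI and 4 a TBR1 UMI. In these 37 cells, 23 had a GAD1 or GAD2 UMI and 9 a UMI of a vesicular glutamate transporter. Another 17 lay in the midbrain or thalamus excitatory neuron-like class, where 1 had a TBR1 UMI, 4 a GAD1 or GAD2 UMI and 11 a transporter UMI. Among the 582 cortical cells, 52 had a GAD1 or GAD2 UMI and 221 a transporter UMI.

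Setting the 5 genes beside each other within a group shows the same contrast of neurons and progenitors, where the share of each gene in the 5 genes' UMIs is compared between groups and not between genes. In the cortical class NEUROD6 took 71.6% and 72.1% of these UMIs and FEZF2 17.3% and 15.5%. In radial glia-like cells FEZF2 took 95.2% and 94.7%, and NEUROD6 2.91% and 3.84%. There were 16.3 and 13.9 NEUROD6 UMIs for each NEUROD1 UMI in the cortical class, but 2.21 and 1.14 in the midbrain or thalamus excitatory neuron-like class and 2.91 and 3.25 in forebrain GABA neuron-like cells. In erythroid-like cells, NEUROD6 took 60.1% and 72.7% of the 5 genes' UMIs and FEZF2 28.1% and 25%.

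The cortical class was clustered again, without the 5 genes and their pathway, to see how they vary within it. It split into sub-clusters 0 to 4 with 271, 233, 214, 199 and 168 cells, which held 28.4%, 22.8%, 17.5%, 20.3% and 11.0% of the class in embryo 1 and 21.4%, 20.1%, 22.0%, 16.4% and 20.1% in embryo 2. Markers of a sub-cluster were set against the rest of the cortical class, so markers that the class shares could not count. On that scale only sub-cluster 0, led by LMO7 and MEF2C and with SLC17A7 at 50.1 CPM ± 1.57, earned a cortical excitatory neuron name. The lack of a name does not mean a lack of cortical markers, since sub-cluster 2 had ZBTB18 at 735 CPM and SLC17A7 at 37.0. Sub-cluster 1 was marked by SLC17A6, the vesicular glutamate transporter of younger and subcortical neurons (204 CPM ± 19.8), with EOMES at 58.0 ± 9.96, and sub-cluster 2 was led by FABPH, DSP and SSTR2. Sub-cluster 3 had 4 radial glia markers and 3 markers of dividing cells, with VIM at 973 CPM and EOMES at 76.6 ± 16.8, and GATM, CCND1 and NEUROG1 were among its 10 leading genes. Sub-cluster 4 was led by TFAP2D and had RELN at 41.1 CPM ± 17.2.

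NEUROD6 was high in sub-clusters 0 and 2, at 1967 CPM ± 36.5 and 2035 ± 47.4, intermediate in 1 and 4 (1184 ± 199 and 1023 ± 85.1), and low in sub-cluster 3 (88.0 ± 11.7). It was found in 98.1% and 96.5% of the cells of sub-cluster 0 and in 12.5% and 10.3% of those of sub-cluster 3. TBR1, also lowest in sub-cluster 3, was ordered otherwise among the rest, with 186 CPM ± 25.5 in sub-cluster 4, 150.4 ± 9.63 in 2, 115 ± 11.8 in 0, 65.7 ± 7.99 in 1 and 3 UMIs in all (3.68 CPM ± 2.16) in sub-cluster 3. NEUROD2 had 51.1 CPM ± 9.58 in sub-cluster 4, 47.7 ± 4.83 in 2, 33.2 ± 7.36 in 0, 28.8 ± 5.37 in 1 and 12.5 ± 6.67 in 3, on 11 to 52 UMIs each.

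NEUROD1 had 172 CPM ± 18.1 in sub-cluster 2, 132 ± 1.97 in 4, 116 ± 0.775 in 1, 59.6 ± 10.8 in LMO7-rich sub-cluster 0 and 25.9 ± 0.112 in 3, on 22 to 148 UMIs each. The smallest of these SDs understate the error. In sub-cluster 3, the 12 and 10 NEUROD1 UMIs allow 13.4 to 45.2 and 12.5 to 47.9 CPM by counting error alone (95% limits). FEZF2 was highest in sub-cluster 0, at 518 CPM in embryo 1 and 448 in embryo 2, and at 268 ± 18.1, 243 ± 37.8, 219.9 ± 3.19 and 167 ± 22.3 in sub-clusters 2, 3, 1 and 4. Alone of the 5 genes, FEZF2 in sub-cluster 3 stood within the range of the other sub-clusters, and it took 68.3% and 61.5% of the 5 genes' UMIs there. Since clusters were drawn from other genes of the same cells, these differences were not tested.

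**Figure D2:**
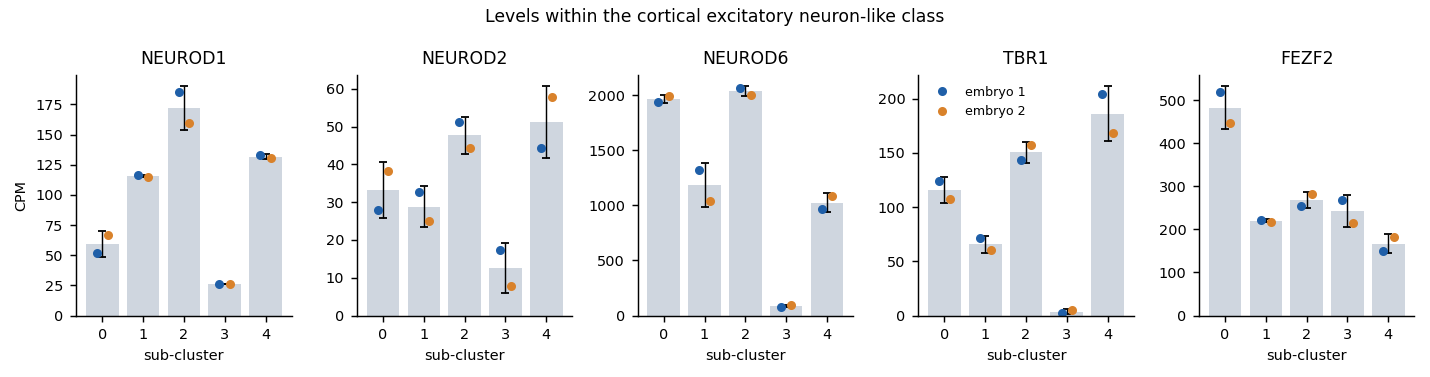
Level of each gene (CPM, linear axis from 0, a scale of its own per gene) in the 5 sub-clusters of the cortical class, with 1 point per embryo, a bar for the mean and error bars for the SD. Sub-cluster 3, which carries radial glia and cell division markers, is lowest for 4 genes (NEUROD6 at 88.0 CPM, TBR1 at 3.68) but not for FEZF2 (243 CPM).

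Within the cortical class, most single cells with TBR1 also had NEUROD6. Of 184 and 167 cells with a TBR1 UMI, 175 and 159 also had a NEUROD6 UMI, where the product of the shares would give 138 and 128. Part of this goes with sub-cluster 3, where NEUROD6 was found in 12.5% and 10.3% of the cells and TBR1 in 0.893% and 2.30%. Co-detection was not counted within sub-clusters. A TBR1 UMI was found in 42.3% and 38.9% of the cells with NEUROD6 and in 6.47% and 6.504% of those without, and after thinning to 2000 UMIs (the second draw) in 25.3% and 22.0% against 5.37% and 2.72%. FEZF2 was less tied to NEUROD6, with 59.2% and 48.2% among cells with NEUROD6 and 38.1% and 39.0% among those without. After the same thinning these were 39.7% and 34.5% against 27.5% and 32.0%, so that little difference was left in embryo 2. All 5 genes were found together in 8 cells of embryo 1 and 0 of embryo 2, and none of them in 71 and 59 cells (12.8% and 11.1%).

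Cells with FEZF2 but no NEUROD6 made up 9.58% and 9.02% of the cortical class (53 and 48 cells), and levels of genes that played no part in choosing them were compared with the other cells of the class. EOMES, the marker of intermediate progenitors, stood at 86.6 and 105 CPM in these cells, against 19.2 and 16.2 in the 245 and 197 cells with both genes and 10.7 and 20.3 in the 169 and 212 cells with NEUROD6 alone. VIM, an intermediate filament of radial glia, was at 1056 and 1063 CPM, against 152 and 137 with both genes and 135 and 99.99 with NEUROD6 alone. TBR1 went the other way, with 8.66 and 20.9 CPM in cells with FEZF2 alone, 115 and 99.5 with both and 141 and 154 with NEUROD6 alone. The 86 and 75 cells with neither gene were on the side of the cells with FEZF2 alone, with VIM at 646 and 673 CPM, EOMES at 39.4 and 58.7 and TBR1 at 32.8 and 20.7. Much of the contrast thus went with the lack of a NEUROD6 UMI. Sub-cluster 3, with radial glia markers including VIM, EOMES at 76.6 CPM and NEUROD6 at 88.0 CPM, has the same traits. How many of these cells lie in it was not counted. PAX6, a radial glia factor, was at 39.0 and 62.8 CPM with FEZF2 alone and at 62.3 and 55.2 with neither. The groups did not overlap between the embryos for EOMES or VIM between FEZF2 alone and the groups with NEUROD6. In radial glia-like cells FEZF2 without NEUROD6 was seen in 339 of 1090 and 227 of 908 cells and both genes in 8 and 5 cells.

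**Figure D3:**
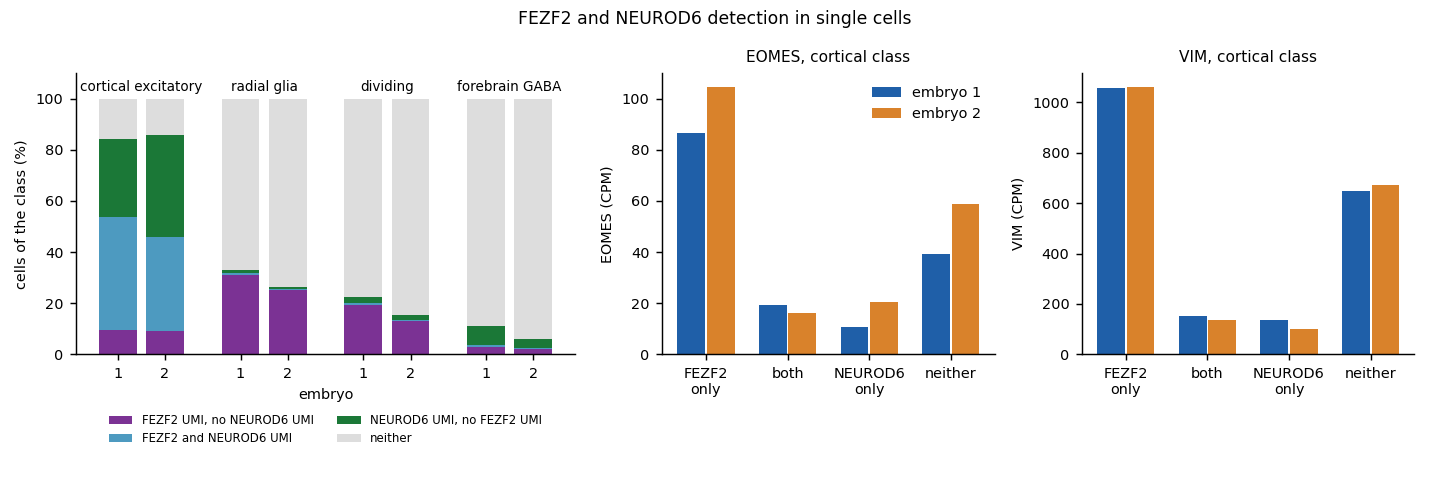
Left, percent of the cells of 4 classes in each embryo with a FEZF2 UMI, a NEUROD6 UMI, both or neither, and right, EOMES and VIM levels (CPM) in those groups of cortical cells, 1 bar per embryo. Cortical cells with FEZF2 alone are 9.58% and 9.02% of the class and have the highest EOMES (86.6 and 105 CPM) and VIM (1056 and 1063 CPM).

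To ask how the 5 genes stand in cells that carry EOMES, the 57 and 53 cortical cells with an EOMES UMI were compared with the 496 and 479 without. NEUROD6, NEUROD2 and TBR1 were lower in the cells with EOMES, and for NEUROD1 and FEZF2 no difference passed the test. Median depths were near each other, 4461 and 3849 UMIs with EOMES and 4444.5 and 3786 without. Sums per embryo were tested with edgeR's quasi-likelihood method with the embryo as a block, and p-values were adjusted by Benjamini-Hochberg over all 5668 genes tested, of which 4.22% were called higher and 4.98% lower (239 and 282 genes, and 184 and 369 with library totals).

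NEUROD6 had 837 and 736 CPM in the cells with EOMES and 1494 and 1415 in those without, a log2 difference of −0.80 (SE 0.101, adjusted p = 8.64e-13). TBR1 had 41.5 and 56.6 CPM against 109 and 105, a log2 difference of −1.07 (SE 0.289, edgeR adjusted p = 0.00506). NEUROD2 had 0 and 4 UMIs in the cells with EOMES, or 0 and 18.9 CPM, against 35.7 and 36.6, a fitted log2 difference of −2.01 (SE 0.610, edgeR adjusted p = 0.0155) that rests on those 4 UMIs. In each of these the embryos pointed the same way. NEUROD1, with 75.4 and 84.9 CPM against 89.0 and 98.8, differed by −0.15 on the log2 scale (SE 0.255, edgeR adjusted p = 0.822), and FEZF2, with 290.3 and 274 against 350.3 and 292, by −0.11 (SE 0.145, edgeR adjusted p = 0.748). No call for NEUROD6, TBR1 or NEUROD2 was left at a cluster resolution of 1.0, with log2 differences of −0.17, −0.16 and −1.39. The cortical class then had 796 cells. It kept 12 of the 199 cells of sub-cluster 3 and 132 of the 233 of sub-cluster 1, the sub-clusters with the highest EOMES levels. Of sub-clusters 0, 2 and 4 it kept 271 of 271, 213 of 214 and 164 of 168 cells. DESeq2 did not call TBR1 (−1.04, adjusted p = 0.497) and gave no adjusted p for NEUROD2 (unadjusted p = 0.0554). NEUROD2 was not called in cells thinned to 2000 UMIs.

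Of the pathway genes tested in the same cells, 3 of 16 were higher with EOMES and 2 lower, where 4.22% and 4.98% of all genes tested were. The median over the 16 was −0.33 on the log2 scale, against −0.05 over all genes. NEUROG1, a proneural factor of dorsal progenitors, was at 38.2 CPM ± 6.03 against 6.12 ± 2.28 (log2 difference 2.67), and PAX6 at 50.0 ± 3.97 against 16.9 ± 5.12 (1.68). POU3F2, a POU factor of progenitors and upper layer neurons, was called only just (0.63, edgeR adjusted p = 0.0495). LMO7, listed here with deep layer genes, had no UMI in cells with EOMES and 65.9 CPM ± 4.61 in those without, which is at least 10.5-fold lower against a floor of 3 UMIs over both embryos. CNTNAP2, an adhesion gene reported as a TBR1 target, was lower by 0.50 on the log2 scale, with 212 CPM against 314. DESeq2 called none of these 5 genes, with adjusted p = 0.788 for POU3F2 and 0.679 for CNTNAP2. It gave no adjusted p for the others, which had an unadjusted p of 0.00261 for NEUROG1, 0.0221 for PAX6 and 0.115 for LMO7.

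**Figure D4:**
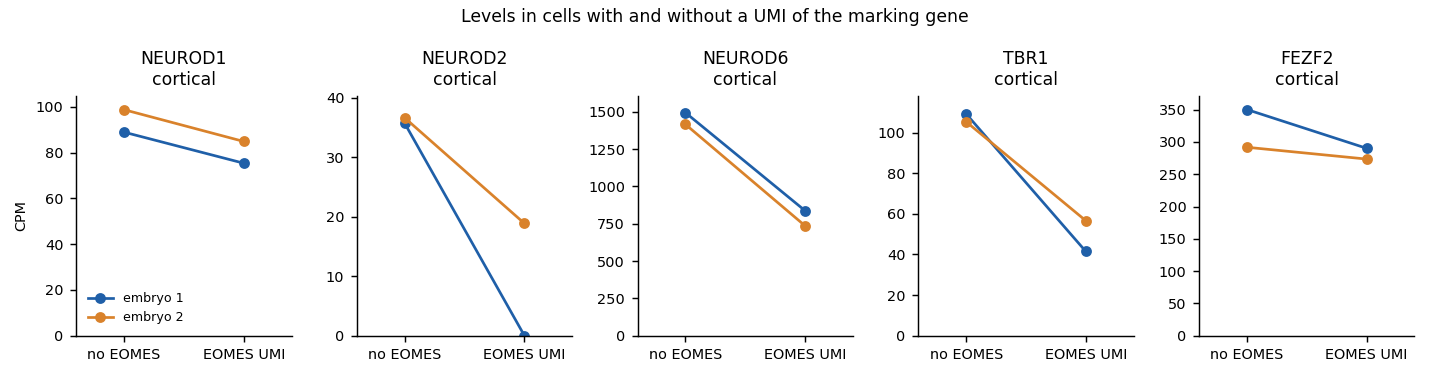
Level of each gene (CPM, linear axis from 0, a scale of its own per panel) in cells with and without an EOMES UMI in the cortical class, with lines joining the values of 1 embryo. NEUROD6 and TBR1 are lower with EOMES in both embryos (837 and 736 CPM against 1494 and 1415 for NEUROD6).

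Outside the cortex the question was whether the genes separate glutamatergic from GABA neurons. The midbrain or thalamus excitatory neuron-like class was set against the mean of the log levels of the forebrain and midbrain GABA neuron-like classes, with classes drawn from other genes of the same cells and all 11 classes of both embryos in the fit. The GABA side was no clean transmitter group. In the forebrain GABA class GAD2 stood at 879 and 1039 CPM, but SLC17A6 also at 57.5 and 39.9. SLC17A6 had 168 and 161 CPM in the excitatory class and 2.10 and 1.87 in the midbrain GABA class. NEUROD1 was 1.79 higher on the log2 scale in the excitatory class (SE 0.229, edgeR adjusted p = 6.19e-10) and was called under every alternative that has a test, at 1.19 to 3.35. This too is a mean over 2 unlike GABA classes. The excitatory class, with 27.5 and 22.1 CPM of NEUROD1, overlapped between the embryos with the forebrain GABA neuron-like class (26.5 and 13.7). Within that forebrain class, 180 of 191 NEUROD1 UMIs lay in cluster 1, which also had granule neuron markers, and 11 in cluster 5. The midbrain GABA neuron-like class was far lower, at 1.68 and 3.32 CPM. NEUROD6 was 0.61 higher (SE 0.164, edgeR adjusted p = 0.00464), but only in the mean over both GABA classes. In both embryos its level in the excitatory class was above that of the midbrain GABA neuron-like class (16.4 and 9.74 CPM) and below that of the forebrain GABA neuron-like class (77.3 and 44.6). Cluster 1 held 543 of the 582 NEUROD6 UMIs of the forebrain GABA class, and cluster 5 held 39. Of 10463 genes, 6.98% were called higher and 5.29% lower, that is 730 and 553 genes, which became 516 and 858 when library totals replaced the TMM factors. For NEUROD2 (1.22, SE 0.599, edgeR adjusted p = 0.213), TBR1 (−0.17, SE 0.781, edgeR adjusted p = 0.961) and FEZF2 (−0.53, SE 0.282, edgeR adjusted p = 0.271) no difference passed the test.

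NEUROD6 was not called without the embryo block, with DESeq2 or with at least 500 genes per cell, at a difference of the same size (0.66, 0.65 and 0.62), and with at least 1000 genes the difference was −0.22. Other values changed with the choice of neurons. Without forebrain GABA neuron-like cluster 1, an alternative chosen after the data had been seen, TBR1 stood at 2.11 (edgeR adjusted p = 0.0726), NEUROD2 at 2.42 (edgeR adjusted p = 0.0205) and FEZF2 at 0.13. Another such alternative took neurons outside the cortical class by their transmitter genes, 348 and 517 cells with a UMI of SLC17A6 and none of GAD1 or GAD2 against 1920 and 3434 cells with GAD1 or GAD2 and none of SLC17A6. TBR1 then had 19.4 and 12.4 CPM against 1.80 and 0.585 (log2 difference 3.83, edgeR adjusted p = 1.27e-12), and FEZF2 15.1 and 20.7 against 11.4 and 2.69 (1.62, edgeR adjusted p = 1.04e-04). The SLC17A6 cells came from the GABA neuron-like classes too. They held 27 and 24 TBR1 UMIs, against 10 and 2 in the whole midbrain or thalamus excitatory neuron-like class. Most of their TBR1 UMIs thus lay in cells of the GABA neuron-like classes. NEUROD6 had 99.3 and 54.8 CPM against 44.7 and 19.9 (1.30) and NEUROD1 23.7 and 24.3 against 17.2 and 6.44 (1.19), so that the levels did not overlap between the embryos for NEUROD1, NEUROD6, TBR1 and FEZF2.

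**Figure D5:**
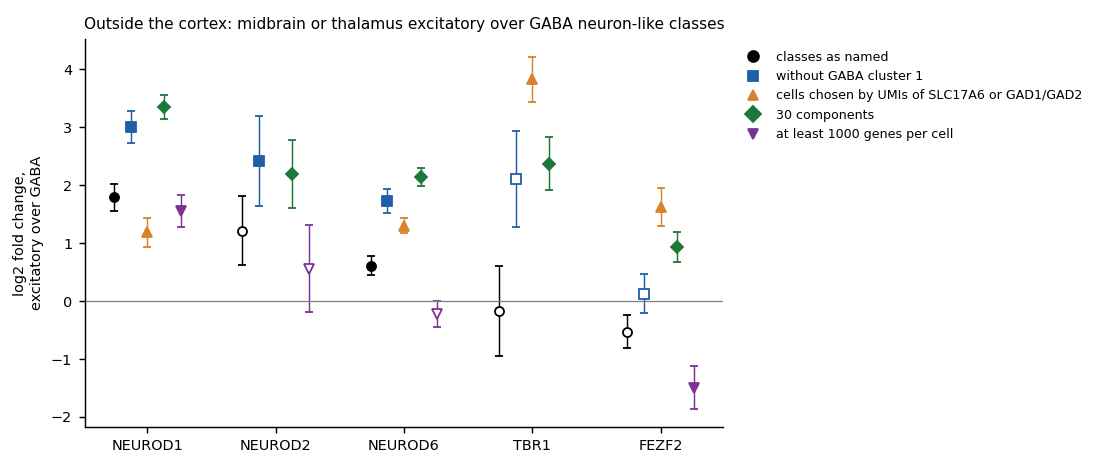
Log2 difference, excitatory minus GABA neuron-like, on the vertical axis, for each gene under up to 5 settings, with SE as error bars and symbols filled where the edgeR adjusted p was below 0.05 and open otherwise. NEUROD1 lies above 0 and filled in every setting shown, whereas TBR1 runs from −0.17 with all classes to 3.83 in cells chosen by transmitter genes. Those cells were taken from the excitatory and GABA neuron-like classes alike.

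Of 46 pathway genes listed, 35 were named in the annotation and 32 were tested between these classes. Of the 32, 4 were higher and 7 lower in excitatory neurons, with a median of −0.19 against −0.02 over all genes. Over all genes tested, 6.98% were called higher and 5.29% lower. ETV1 (log2 difference 2.23, 7.17 CPM in the excitatory class) and BCL11B (1.02, 8.75 CPM), both listed with deep layer factors, POU3F2 (0.89, 266 CPM) and CNTNAP2 (0.53, 343 CPM) were higher than the mean of both GABA classes. CNTNAP2 was lower than in forebrain GABA neuron-like cells in both embryos (307 against 421 CPM and 378 against 511) and higher than in midbrain GABA neuron-like cells (138 ± 12.7). BCL11B was at 10.2 ± 1.38 CPM in the former and 1.88 ± 0.311 in the latter. BCL11B was lower in excitatory neurons, without a call, with at least 500 or 1000 genes per cell or 30 components, and was not called with DESeq2, without the block, at resolution 1.0, in cells chosen by transmitter genes or without cluster 1. LMO4, a LIM-only protein (−1.66), ID2, an inhibitor of basic helix-loop-helix factors (−1.52), and the E proteins TCF4 (−0.73) and TCF12 (−0.71), with which NEUROD proteins pair, were lower. TCF4 was at 25.9 CPM ± 0.192 in the excitatory class, 133 ± 7.63 in forebrain GABA and 16.2 ± 3.24 in midbrain GABA neuron-like cells, and at 236 ± 32.7 in the cortical class.

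The same pathway genes were counted in the cortical class against the mean of the log levels of the other 3 neuron-like classes. Of the 32 tested, 14 were called higher and 4 lower, with a median of 0.73 against −0.02 over all genes, of which 13.4% were called higher and 10.7% lower (1405 and 1116 genes, and 854 and 2131 with library totals). Upstream progenitor factors were higher in 4 of 4 tested, led by EMX2 (7.93 CPM ± 3.52 in the cortical class, and 0 in 2 of the other classes), EOMES (28.1 ± 3.79, log2 difference 5.51) and NEUROG1 (9.29 ± 1.60, 4.51), and these UMIs lay mainly in sub-clusters 1 and 3 for EOMES and in sub-cluster 3 for NEUROG1. PAX6, also among them, was higher only in the mean over the classes. It had 17.4 and 23.1 CPM in the cortical class, which overlaps with the 25.6 and 22.2 of forebrain GABA neuron-like cells. The midbrain or thalamus excitatory and midbrain GABA neuron-like classes had 4.90 and 2.92 CPM (means of both embryos). Notch and ID inhibitors were higher in 2 of 5, E proteins in 1 of 3, deep layer factors in 3 of 6 with 1 lower, upper layer factors in 1 of 8 with 2 lower, and reported TBR1 targets in 3 of 6 with 1 lower.

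LMO7 was at 59.4 CPM ± 3.86 in the cortical class and at most 2.24 in the other neurons (log2 difference 6.02), with 281 of its 286 cortical UMIs in sub-cluster 0, where FEZF2 was highest. FOXP2, a forkhead factor of deep layer and subcortical neurons, was lower, at 3.93 CPM ± 0.437 against 34.2, 38.5 and 51.9 in the midbrain or thalamus excitatory, forebrain GABA and midbrain GABA neuron-like classes (−3.14). RELN, the secreted glycoprotein of Cajal-Retzius cells and a reported TBR1 target, was at 13.9 ± 1.07 against 74.1, 63.8 and 177 (−2.56), and within the cortical class it was highest in sub-cluster 4 together with TBR1. CUX1 (−0.42), listed with upper layer factors, was lower too. POU3F2 (−0.78), from the same list, was lower only in the mean over the classes. It had 73.3 and 116 CPM in the cortical class, which overlaps with the 94.6 and 106 of forebrain GABA neuron-like cells. The midbrain or thalamus excitatory and midbrain GABA neuron-like classes had 266 and 231 CPM of POU3F2 (means of both embryos). TLE4 and POU3F1 had no UMI in the cortical class, and PTF1A was the 1 named gene among other neurogenic basic helix-loop-helix factors and was not tested.

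Across the 17 clusters in each embryo, 34 points that share libraries and depth, the log2(CPM + 1) levels of NEUROD6 and TBR1 had a Pearson correlation of 0.870, NEUROD2 and TBR1 of 0.863, and NEUROD1 and NEUROD6 of 0.823. Without the cortical cluster these were 0.712, 0.567 and 0.721 over 32 points. By Pearson correlation FEZF2 was least like the others, with 0.620 to TBR1, 0.574 to NEUROD6, 0.478 to NEUROD2 and 0.389 to NEUROD1. Without the cortical cluster these were 0.437, 0.369, 0.124 and 0.152. By Spearman correlation of ranks this did not hold for TBR1, with 0.669 between TBR1 and FEZF2 and 0.487 between NEUROD2 and TBR1. Like genes were ranked by Pearson correlation over all 34 points, the cortical cluster included. Among the 7257 genes with a mean of at least 5 CPM (7258 for NEUROD2), TBR1 was the gene most like NEUROD6 and also the gene most like NEUROD2, and NEUROD6 the one most like TBR1. The nearest other genes were ARPP21 (0.719), SLCO5A1 (0.687) and SYT4 (0.687) for NEUROD6, C1QL3 (0.837) and evm.model.chr1.1620 (0.726) for NEUROD2, and C1QL3 (0.737), SERPINI1 (0.679) and evm.model.chr1.1620 (0.667) for TBR1. For NEUROD1 the nearest were ARPP21 (0.846), NEUROD6, evm.model.chr11.437 (0.821), SLC17A6 (0.816) and PACA (0.809). The genes most like FEZF2 were a different set, with NFIX (0.816), DMRTA1 (0.813), DIRAS3 (0.793), SFRP1 (0.747) and PTPRZ1 (0.744).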

How the data were processed

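Whole brains of 2 tree shrew embryos gave 1 library each of the 10x Chromium 3′ kit. The authors ran Cell Ranger 3.1.0 with default settings against the TS_2.0 assembly and deposited raw UMI counts per gene model and barcode (41868023 and 38077767 UMIs in 9241 and 9685 barcodes), without normalization. The study's main text gives a higher cell number than these 18926 barcodes, and no source used here names a minimum of genes per cell. Coordinates and sequences of this build were not used here.

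Models sharing a name were summed, and cells with at least 200 genes were kept (Python 3.11.15, scipy 1.17.1). Counts were scaled to 10000 per cell and log-transformed, and 2000 variable genes, 20 components, 20 neighbours and leidenalg 0.10.2 at a resolution of 0.5 gave the clusters. A marker counted if found in at least 10% of a cluster's cells and at least 2 times higher than elsewhere. For sub-clusters, elsewhere meant the rest of the cortical class. A name needed at least 3 markers, no tie and no lead by another type's markers, and 8 names were matched through older symbols after the clusters had been seen. Doublets were kept, since Scrublet called 1 cell per embryo. An alternative left out the 565 and 696 cells with the highest scores. A count of 0 allows 3 counts, and such limits cover counting error only.

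UMI sums per embryo and group were tested with edgeR (quasi-likelihood, TMM, filterByExpr, embryo as a block because groups of one embryo come from one brain, threshold 0.05). This treats the 2 embryos as the replicates. The scripts were tested on simulated data. Named pathway genes are the 4 with the largest and the 4 with the smallest called log2 difference per comparison, and like genes the 5 with the highest correlation. The 5 genes, the lists and the tests were chosen with earlier results of these data known. Alternatives were 500 or 1000 genes per cell, no high Scrublet scores, no cells with at least 1% haemoglobin outside the erythroid class, resolution 1.0, 30 components, RLE, library totals, no gene filter, DESeq2, no block, thinning to 2000 UMIs and each embryo left out. A further comparison is not reported here.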

Additional observations from a re-analysis of the deposited data

Results flagged for a closer look

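NEUROD6 and FEZF2 were also counted in barcodes that no comparison used. The 1199 barcodes with fewer than 200 genes held 27 NEUROD6 UMIs and 16 FEZF2 UMIs, more than the 3 UMIs that a count of 0 allows. Most came from embryo 1, where the 5 genes had 41 UMIs in these barcodes, 56.1% of them NEUROD6 and 36.6% FEZF2, against 71.6% and 17.3% in the cortical class of that embryo.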

How the results depend on the processing

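The 5 cortical levels and their shares of UMIs moved by less than the spread between embryos in 23 of 35 and 17 of 30 alternatives. At resolution 1.0 the levels of NEUROD1, NEUROD2, NEUROD6 and TBR1 were 112, 41.2, 1759 and 131 CPM, and the shares of NEUROD1, NEUROD6 and FEZF2 were 43.3%, 78.9% and 30.4%. Without the highest Scrublet scores NEUROD2, NEUROD6 and TBR1 had 35.8, 1473 and 104 CPM, and the shares of NEUROD1, NEUROD6, TBR1 and FEZF2 were 50.3%, 87.7%, 78.0% and 39.99%. As means over cells NEUROD1, NEUROD2, TBR1 and FEZF2 had 105, 37.2, 106 and 275 CPM, and with 30 components TBR1 had 104. The NEUROD1 share was 48.3% with 500 or 1000 genes per cell, 47.98% without haemoglobin-bearing cells and 45.7% with 30 components, and with 1000 genes the shares of NEUROD6 and FEZF2 were 84.3% and 37.99%.

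Of 123 alternatives to tests of the 5 genes, 99 kept direction and side of the threshold, 8 lost a call, 4 gained one and 12 changed sign, and of 253 for other named genes 221, 28, 0 and 4 did so. Causes were not tested except where stated. Outside the cortex, log2 differences at resolution 1.0 were 1.55 for NEUROD2 and 1.97 for TBR1, and with 30 components 2.19, 2.37 and, for FEZF2, 0.94. NEUROD6 had 0.65 with DESeq2, 0.66 without the replicate block, 0.62 with 500 and −0.22 with 1000 genes per cell. TBR1 had 1.41 with 500 genes, and FEZF2 −1.496 with 1000. Cells chosen by transmitter genes gave 3.83 for TBR1 and 1.62 for FEZF2, and without forebrain GABA cluster 1 the values were 2.42 for NEUROD2, 2.11 for TBR1 and 0.13 for FEZF2. BCL11B reversed to −0.67, −0.44 and −0.39 with 500 genes, 1000 genes and 30 components. Genes called (1283) became 623 without the block, 2112 with 500 genes, 2547 at resolution 1.0 and 2627 with 30 components, and in the comparison of the cortical class 2521 became 1665 without the block.

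With EOMES, resolution 1.0 gave 0.66 for NEUROD1, −1.39 for NEUROD2, −0.17 for NEUROD6, −0.16 for TBR1, 0.0703 for FEZF2 and −0.0675 for POU3F2. Thinning gave −1.45 for NEUROD2 and 0.13 for FEZF2, and DESeq2 −1.04 for TBR1 and no adjusted p for NEUROD2, LMO7, NEUROG1 or PAX6. Genes called (521) became 111 with DESeq2, 225 after thinning and 116 at resolution 1.0. The block changed no other call on the 5 genes.

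Leaving out an embryo leaves no residual degrees of freedom, so these are values with no test. They ran from 1.76 to 2.03 (NEUROD1), 1.014 to 1.30 (NEUROD2), 0.36 to 0.84 (NEUROD6), −1.76 to 0.72 (TBR1) and −0.62 to −0.42 (FEZF2) outside the cortex. With EOMES they were −0.16 to −0.09, −6.53 to −0.88, −0.89 to −0.69, −1.25 to −0.83 and −0.13 to −0.04 in the same order, where −6.53 comes from embryo 1 with 0 NEUROD2 UMIs and is no bound. At least 2 EOMES UMIs left 6 and 11 cells, too few to run. Depth limits NEUROD2 most, with 210 UMIs.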

Other observations

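Some cells outside the neuron-like classes had many NEUROD6 UMIs. Of the 673 cells with at least 5, 16 lay in the dividing class, with a median of 9147 UMIs per cell against 4788 in the whole class, and 7 of these had a TBR1 UMI and 7 a FEZF2 UMI. Another 10 lay in the erythroid-like class, 7 in embryo 1 and 3 in embryo 2, and 6 of them had a UMI of a vesicular glutamate transporter. These 26 cells were not examined further.

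NEUROD2 and EOMES were found in the same cortical cell in 0 cells of embryo 1 and 4 of embryo 2, where the product of their shares would give 7.73 and 6.67 cells. For TBR1 and EOMES the numbers were 9 and 8 cells against 19.0 and 16.6, and for NEUROD6 and EOMES 32 and 28 against 42.7 and 40.7. FEZF2 and EOMES were found together in 40 and 26 cells, against 30.7 and 24.4. Cells thinned to equal depth kept only part of this. NEUROD2 and EOMES then shared 0 and 3 cells against 1.36 and 1.98, and FEZF2 and EOMES 12 and 11 against 11.2 and 11.1. TBR1 and EOMES shared 4 and 5 against 6.09 and 5.40, and NEUROD6 and EOMES 19 and 12 against 22.2 and 23.3. Thus TBR1 and NEUROD6 stayed below the product in both embryos, TBR1 in embryo 2 only just. These small counts were not tested.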
